A study of Mus musculus with 4 samples.

Results

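The genes described here are the enzymes of glycolysis, the proteins that sense oxygen and carry the hypoxia response, and well-known target genes of that response. The list holds 40 genes picked by name, with earlier results of these data known. Each was measured by the brightest of the probe sets that name it alone, a probe set being the group of short probes on the array that reads 1 transcript. Of the 40 genes, 38 had such a probe set and 37 were tested, among 12547 genes tested on the arrays. Gapdh is read only by control probe sets, which were left out of the test, and is given as values. Gpi1 and Eno1 were not analysed here, since no probe set in the annotation used names either alone. The RNA came from naive T cells of mouse spleen, taken from wild-type (WT) mice or from KO mice and cultured for 3 days under conditions that induce regulatory T cells (Treg cells), and was measured on 4 Affymetrix arrays, 2 of each genotype. The labels give neither the gene removed in the KO nor the strain, the age, the number of mice behind an array or how the cells were isolated. The titles number the arrays 1 and 2 within each genotype, and p-values measure the spread between these arrays, which may be partly technical.

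Glycolysis breaks glucose down to pyruvate in the cytosol, and lactate dehydrogenase can turn the pyruvate into lactate. Activated T cells run this pathway at a high rate even when oxygen is present. Cells sense low oxygen through prolyl hydroxylases of the EGLN family, which mark the alpha subunit of the hypoxia-inducible factor (HIF) for the VHL ubiquitin ligase. When hydroxylation slows, the alpha subunit pairs with ARNT and raises the transcription of most glycolytic enzymes and of genes for angiogenesis, collagen modification and mitochondrial restraint. In differentiating CD4 T cells the HIF-1 alpha subunit is known to favour the Th17 programme and to act against Foxp3, the Treg factor.

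The members with the largest rises in KO cells belonged to the hypoxia response. Hif1a, which encodes the oxygen-regulated subunit of HIF-1, rose 3.51-fold, and its targets Adm, P4ha2 and Egln3 rose 3.42-fold, 2.07-fold and 1.78-fold. The list has 9 other hypoxia-induced genes, Adm and P4ha2 among them. Of these 5 rose, Ankrd37 fell, and Vegfa, P4ha1 and Kdm3a did not pass. The arrays read RNA, and HIF-1 alpha protein was not measured. Among the 14 tested enzymes from hexokinase to lactate dehydrogenase, Hk2 rose, Ldhb fell and 12 did not pass, a share of calls (14.3%) not far from that of all genes, and the difference between these enzymes and the hypoxia genes was not tested. In all, 10 of the 37 tested members rose (27.0%) and 3 fell (8.11%), where 20.3% of all genes tested were called, 10.5% higher and 9.87% lower. The 3 include Arnt, whose probe sets disagree, and without cross-hybridising probe sets, when Arnt is called higher, 11 members rose and 2 fell. Over all probe sets 17.1% were called. The words rose, fell and called stand for an adjusted p under 0.05 in limma's moderated test. Fold changes are on the log2(signal + 16) scale, which understates the change of dim genes. The median log2 fold change of the members was 0.13, beside -0.03 over all genes tested. The values of the KO and WT arrays did not overlap for 27 members, 18 of them higher in KO cells (48.6%) and 9 lower (24.3%), beside 29.8% and 32.9% of all genes tested and 62.7% in either direction.

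Both counts lean on how the variance was estimated and on single arrays. Without the dependence of the variance on intensity 2 members were called higher, Hif1a and P4ha2, and 0 lower, with an adjusted p from limma of 0.0449 for Hif1a and 0.0483 for P4ha2. Without WT array 2 the counts were 6 higher and 1 lower, and without KO array 1 they were 11 and 1. In bulk RNA, fewer cells of a type and less RNA per cell cannot be told apart.

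**Figure D1:**
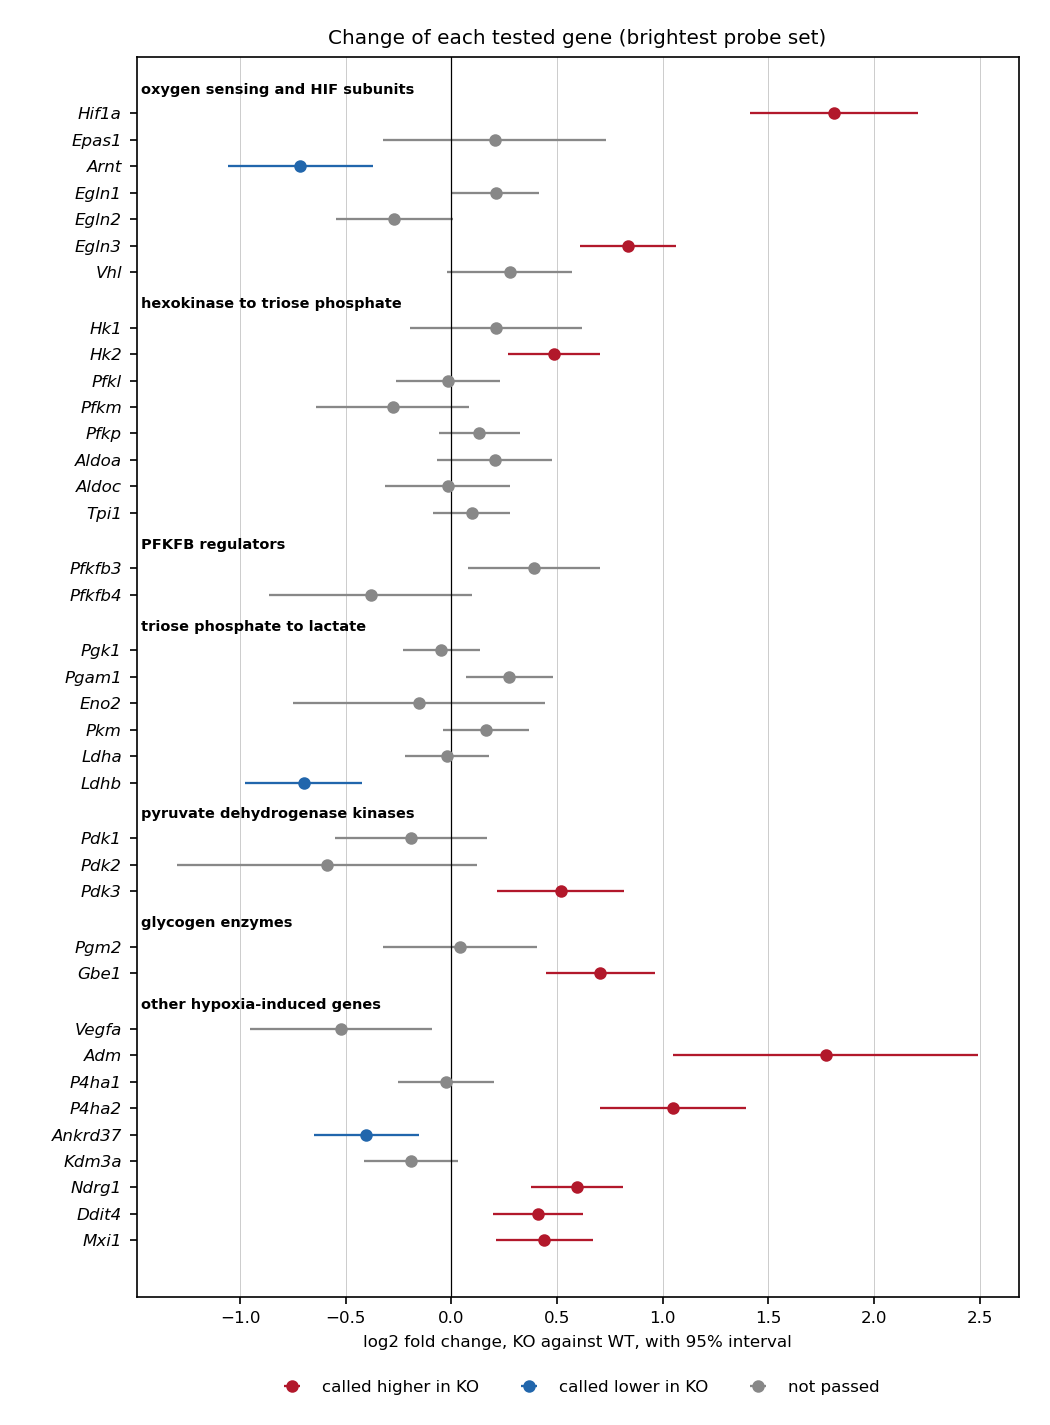
Log2 fold change of KO against WT cells (x axis) for the brightest probe set of each of the 37 tested genes, grouped by role. Points are estimates, lines their 95% intervals from limma, and colour marks the 10 genes called higher, the 3 called lower and the 24 that did not pass.

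The arrays and the other cells in the cultures bear on every value below. Signals of arrays of the same genotype correlated at r = 0.979 (WT) and 0.977 (KO) across probe sets, and those of different genotype at 0.933 to 0.941. T cell markers were present on all arrays, with a summed signal of 68372 to 69783 in WT and 85300.5 to 87484 in KO cells over 10 genes. They were called in both directions: 4 of the 10 rose, 1 fell (Cd5) and 5 did not pass. The summed signals of the marker lists of other cells were higher in KO cells, except for stroma and endothelium (1214 and 780 in WT, 688 and 720 in KO cells). Over all genes tested 10.5% were called higher and 9.87% lower. For mast cells and basophils 9 of 12 tested markers rose and none fell, and the summed signal of the list was 999 and 1293 on the WT arrays and 18092 and 12678 on the KO arrays. The CD8 T cell list rose in 6 of 7 members (4232 and 4926 against 58576 and 41521.5), that of eosinophils and neutrophils in 5 of 7 (216 and 312 against 9197 and 3789.5), and that of monocytes, macrophages and dendritic cells in 5 of 9 (652 and 961 against 2363 and 1873). In each of these 4 lists KO array 1 had the higher sum of the KO arrays. Of the other lists, NK cell markers rose in 3 of 4, B cell and plasma cell markers in 3 of 7 and red cell and platelet markers in 1 of 4, while of 3 markers of stroma and endothelium 1 rose and 1 fell. No marker was listed at 0, but 6 of 11 measured eosinophil and neutrophil markers, among them Siglecf and Ccr3, stayed under a signal of 100 on every array. The part of these cells in the changes of the members was not tested.

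The DNA element that HIF binds, the hypoxia response element, has a core of ACGTG or GCGTG, and it is shown here because genes with it in their promoters went in every direction in KO cells. The core was searched on both strands (on the other strand ACGTG reads CACGT, and GCGTG reads CACGC) in the 250 bases before the start of each gene (RefSeq, GRCm38.p6, the first window listed for a gene). A window was at hand for 38 members, without Epas1 and Ndrg1. The E-box CACGTG, which other factors bind, contains the core and was counted as a match. The core occurred in the windows of 7 of 9 members that rose, 3 of 3 that fell and 16 of 23 that did not pass. It occurred in those of 55.8% of the 10143 genes tested on the arrays and 38.6% of all 27025 genes with a window. The members' windows had a median GC content of 59.4%, beside 59.6% in the tested genes, and those of the members that rose had 66.4%. A match is a sequence of letters and was not tested for binding. Below, 3 members that rose come first (P4ha2, Hk2 and Adm), then 2 whose signals stayed level (Ldha and Pgk1) and 2 that fell (Ankrd37 and Ldhb), with the core in capitals and each window read 5′ to 3′ on the strand of its gene.
P4ha2 (chr11:54100674-54100923, plus strand): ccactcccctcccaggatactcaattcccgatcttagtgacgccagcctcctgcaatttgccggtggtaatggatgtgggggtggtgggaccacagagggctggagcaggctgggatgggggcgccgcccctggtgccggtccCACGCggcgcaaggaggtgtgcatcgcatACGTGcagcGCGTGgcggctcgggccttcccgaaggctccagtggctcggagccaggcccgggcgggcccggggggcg
Hk2 (chr6:82774455-82774704, minus strand): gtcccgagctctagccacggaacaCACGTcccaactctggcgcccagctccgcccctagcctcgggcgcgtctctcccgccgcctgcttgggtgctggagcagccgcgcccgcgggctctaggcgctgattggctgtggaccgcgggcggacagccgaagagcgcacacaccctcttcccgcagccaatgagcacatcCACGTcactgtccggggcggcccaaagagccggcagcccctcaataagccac
Adm (chr7:110627407-110627656, plus strand): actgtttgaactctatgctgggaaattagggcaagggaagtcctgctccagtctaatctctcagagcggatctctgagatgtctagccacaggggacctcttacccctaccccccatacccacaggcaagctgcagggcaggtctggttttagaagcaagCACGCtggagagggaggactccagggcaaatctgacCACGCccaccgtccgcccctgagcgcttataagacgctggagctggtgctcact
Ldha (chr7:46845554-46845803, plus strand): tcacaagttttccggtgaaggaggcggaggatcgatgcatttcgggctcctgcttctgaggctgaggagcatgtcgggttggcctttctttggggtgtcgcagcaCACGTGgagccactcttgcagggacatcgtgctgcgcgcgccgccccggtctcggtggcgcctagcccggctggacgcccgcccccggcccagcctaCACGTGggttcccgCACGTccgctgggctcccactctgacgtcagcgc
Pgk1 (chrX:106186850-106187099, plus strand): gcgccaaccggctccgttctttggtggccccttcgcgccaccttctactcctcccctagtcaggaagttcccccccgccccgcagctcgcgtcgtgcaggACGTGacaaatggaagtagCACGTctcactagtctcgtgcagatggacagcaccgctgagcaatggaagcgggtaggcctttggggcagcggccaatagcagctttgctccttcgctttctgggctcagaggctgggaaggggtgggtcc
Ankrd37 (chr8:45999851-46000100, minus strand): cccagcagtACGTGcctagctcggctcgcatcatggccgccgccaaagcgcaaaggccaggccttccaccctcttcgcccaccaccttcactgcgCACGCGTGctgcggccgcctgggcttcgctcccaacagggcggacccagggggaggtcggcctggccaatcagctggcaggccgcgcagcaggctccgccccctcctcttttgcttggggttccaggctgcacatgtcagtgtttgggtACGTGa
Ldhb (chr6:142507958-142508207, minus strand): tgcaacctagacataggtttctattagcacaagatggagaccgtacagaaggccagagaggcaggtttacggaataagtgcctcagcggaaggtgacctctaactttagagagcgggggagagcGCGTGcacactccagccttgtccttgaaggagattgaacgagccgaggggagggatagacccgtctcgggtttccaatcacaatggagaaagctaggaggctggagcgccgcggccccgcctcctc

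The P4ha2 window has 3 separate stretches of the core, 107, 78 and 69 bases before the start. The Ldha window also has 3, among them 2 E-boxes, and that of Ankrd37 has 3 as well. Over all members with a window, the median number of cores was 2 in those that rose, 1 in those that fell and 1 in those that did not pass. It was 1 in the tested genes with a window. The median GC content of these windows was 66.4% in members that rose, 57.2% in those that fell and 60.4% in those that did not pass. The difference in cores was not tested.

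Of the HIF subunits, Hif1a moved most. Its signal was 4301 and 6591 on the WT arrays and 18131 and 19343 on the KO arrays, so that each KO array lay far above both WT arrays. The log2 fold change was 1.81 ± 0.17 (SE, n = 2 per group), with an adjusted p of 0.000319 in limma. All 3 tested probe sets of Hif1a rose, the other 2 by 2.02 ± 0.13 and 2.08 ± 0.24. The fourth was dim and below the filter. Epas1, which encodes the HIF-2 alpha subunit, was dim, with 155 and 182 in WT and 205 and 188 in KO cells, and did not pass (0.20 ± 0.23, adjusted p = 0.597).

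The probe sets for Arnt, the partner of both alpha subunits, went in opposite directions. The brightest read 911 and 996 in WT and 535 and 616 in KO cells and was called lower (-0.71 ± 0.15, adjusted p = 0.0141). The next read 514 and 525 in WT and 1073 and 902 in KO cells and was called higher (0.90 ± 0.15, adjusted p = 0.00525). The other 3 were dim and did not pass. Arnt counts among the members that fell by the rule of the brightest probe set, and its direction is not settled. Its call as lower was also lost without WT array 2 or KO array 1.

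Among the oxygen sensors the induced hydroxylase rose. Egln3 encodes the prolyl hydroxylase that is itself a strong HIF target. It read 9469 and 10322 in WT and 18845 and 16535 in KO cells (0.84 ± 0.10, adjusted p = 0.000904), and its second probe set rose likewise (0.81 ± 0.11). Egln1, the main hydroxylase of HIF-1 alpha in most cells, read 6722 and 6831 in WT and 8027 and 7658 in KO cells. Its groups did not overlap, but the difference was small and did not pass (0.21 ± 0.09, adjusted p = 0.151). Egln2 lay on the other side, at 1541 and 1526 in WT and 1314 and 1226 in KO cells (-0.27 ± 0.12, adjusted p = 0.167). Vhl, the substrate receptor of the ubiquitin ligase, read 955 and 920 against 1104 and 1173 (0.28 ± 0.13, adjusted p = 0.187). The change of Egln3 exceeded that of Egln1 by 0.63 and that of Egln2 by 1.11 on the log2 scale, with no overlap between the groups. An exact permutation test of such a difference cannot go below a two-sided p of 0.333 with 2 arrays against 2, which was the value of 14 of the 15 pairs of relatives compared (adjusted p = 0.357).

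**Figure D2:**
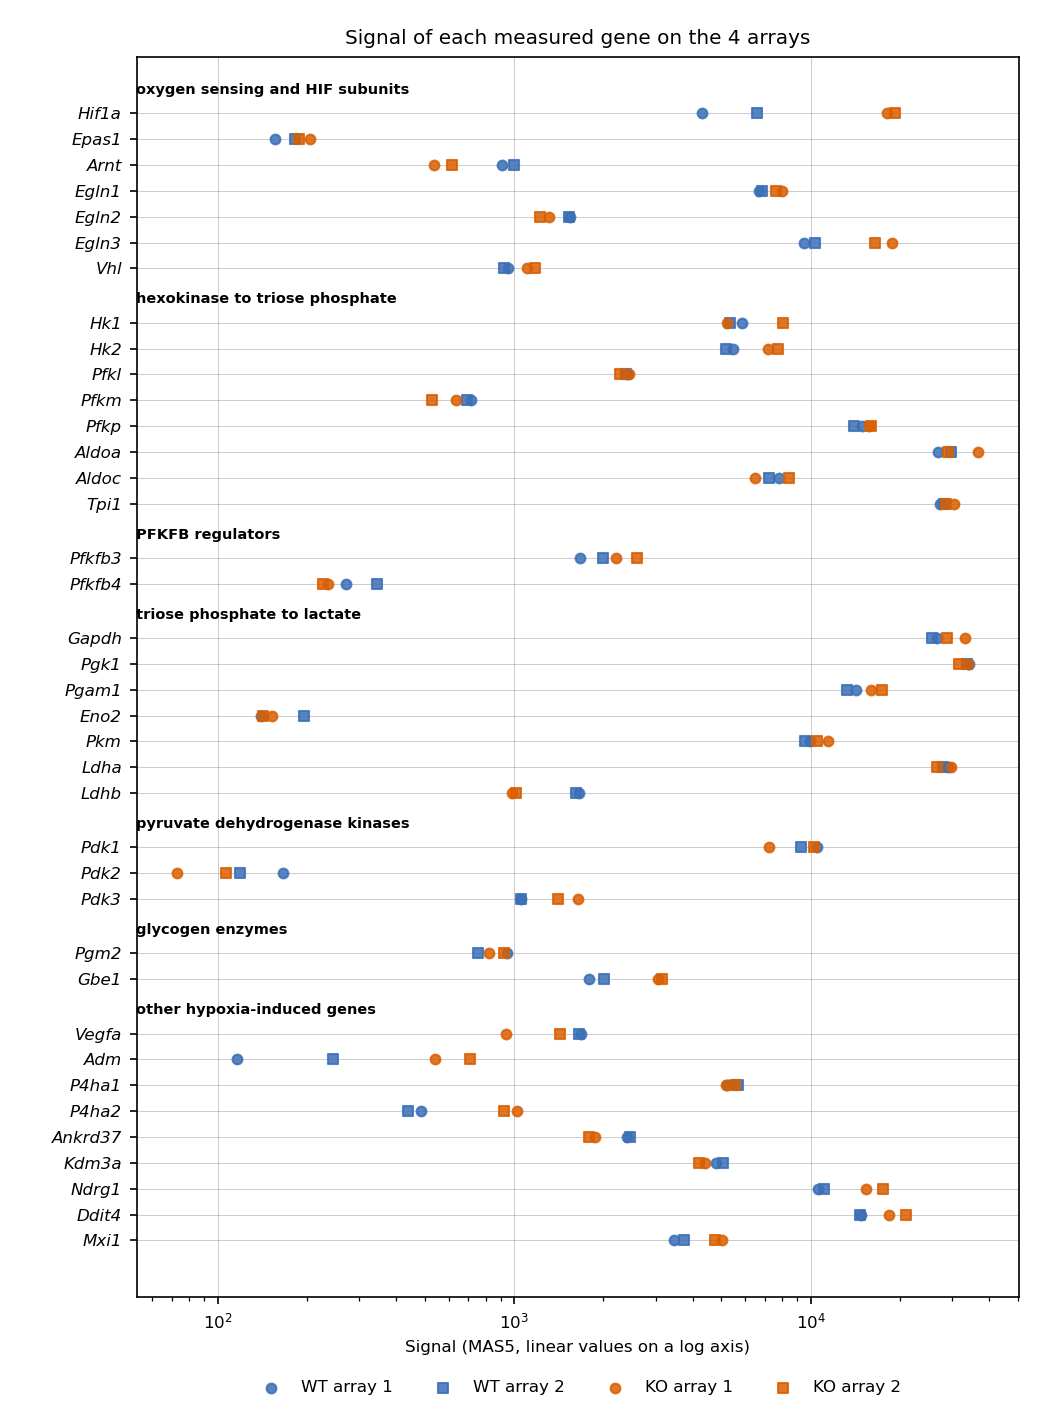
Signal (MAS5, x axis, log scale) of each of the 38 measured genes on the 2 WT arrays (blue) and the 2 KO arrays (orange), grouped by role. Hif1a lay at 4301 and 6591 in WT and 18131 and 19343 in KO cells, while the points of Pgk1, Ldha and Pfkl overlap between the genotypes; distances along the axis can be read within a gene, not between genes.

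Of the 8 tested enzymes from hexokinase to triose phosphate, Hk2 was called, a share near that of all genes. Hk2, the inducible hexokinase that traps glucose in the cell, read 5490.1 and 5185 on the WT arrays and 7194 and 7779 on the KO arrays, a rise of 1.40-fold (0.49 ± 0.10, adjusted p = 0.0106). Its window above has a core 226 and 52 bases before the start. The call was lost without WT array 2. Hk1, the constitutive hexokinase, read 5848 and 5367 in WT and 5233 and 8042 in KO cells. The KO arrays thus lay on either side of the WT arrays, and Hk1 did not pass (0.21 ± 0.18, adjusted p = 0.466). Without KO array 1 it was called higher, at 0.52.

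The phosphofructokinase genes, whose enzyme makes the committed step, did not pass. Pfkp, the platelet-type subunit, read 14860 and 14051 in WT and 15692.5 and 15994 in KO cells (0.13 ± 0.08), and the interval of its fold ran from 0.960 to 1.25. Pfkl, the liver type, read 2398 and 2374 against 2443 and 2282 (-0.02 ± 0.11). Pfkm, the muscle type, read 713 and 695 against 633 and 527 (-0.28 ± 0.16, adjusted p = 0.274). By the brightest probe sets Pfkl overlapped between the genotypes, and Pfkm and Pfkp lay apart in opposite directions by less than the test could call. The 2 genes for the bifunctional enzymes that set fructose 2,6-bisphosphate, an activator of phosphofructokinase, also lay apart in opposite directions without a call. Pfkfb3 read 1667 and 1985 in WT and 2203 and 2597 in KO cells (0.39 ± 0.14, adjusted p = 0.0876), and Pfkfb4 read 271 and 344 against 235 and 226 (-0.38 ± 0.21, adjusted p = 0.26).

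The genes of aldolase and triose phosphate isomerase, which yield the triose phosphates, did not pass. Aldoa read 26938 and 29862 in WT and 36861 and 29019 in KO cells (0.21 ± 0.12, adjusted p = 0.281). KO array 1 stood above the other 3 arrays, and without KO array 2 the gene was called higher at 0.38. Its other 4 tested probe sets did not pass, and lay between -0.19 and 0.06. Aldoc, the brain-type aldolase, read 7804 and 7220.1 against 6510 and 8437 (-0.02 ± 0.13). Tpi1 read 27306 and 28140.2 in WT and 30567 and 28711 in KO cells (0.10 ± 0.08), a fold between 0.942 and 1.21.

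None of the tested enzymes from triose phosphate to pyruvate was called with all 4 arrays. Gapdh, which makes the NADH of the pathway, read 26716 and 25770.3 in WT and 33140.2 and 28871 in KO cells by its brightest control probe set, a difference of 0.24 that was not tested with the others. With control probe sets kept in the fit this probe set did not pass (adjusted p = 0.115, limma). The other control probe sets of Gapdh differed by 0.26 and, with overlapping groups, by 0.05. Pgk1, the first enzyme that makes ATP in the pathway, read 34336 and 33714 in WT and 34089 and 31786 in KO cells. The groups overlapped (-0.05 ± 0.08), and the fold lay between 0.853 and 1.097. Pgam1 read 14258 and 13295 in WT and 15967 and 17371 in KO cells and did not pass (0.27 ± 0.09, adjusted p = 0.0713), but without KO array 1 it was called higher at 0.33. Eno2, the neuronal enolase, was dim at 139 and 195 against 153 and 141 (-0.15 ± 0.26). Pkm, the pyruvate kinase of T cells, read 9976 and 9599 in WT and 11413 and 10536 in KO cells (0.16 ± 0.09, adjusted p = 0.256).

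The lactate dehydrogenase genes parted. Ldhb encodes the heart-type subunit, which favours the oxidation of lactate to pyruvate. It read 1650 and 1615 on the WT arrays and 983 and 1016 on the KO arrays, so the WT level was 1.62 times that of KO cells (-0.70 ± 0.12, adjusted p = 0.00593). All 4 probe sets of Ldhb fell, the other 3 by 0.84, 1.12 and 1.27 on the log2 scale. Ldha, the muscle-type subunit that favours lactate production, read 29145 and 28098.5 in WT and 29902 and 26670.5 in KO cells. Its groups overlapped (-0.02 ± 0.09, adjusted p = 0.911), and the interval of its fold ran from 0.860 to 1.13. The change of Ldhb lay 0.68 below that of Ldha on the log2 scale (exact permutation p = 0.333, the smallest possible). Over the 12 glycolytic enzymes that did not pass, the log2 fold changes lay between -0.28 and 0.27, and their 95% intervals kept the folds between 0.595 and 1.54. Pfkp, Aldoa, Tpi1, Pgk1, Pgam1, Ldha and the hypoxia gene Ddit4 were read by probe sets above the 99th percentile of brightness.

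**Figure D3:**
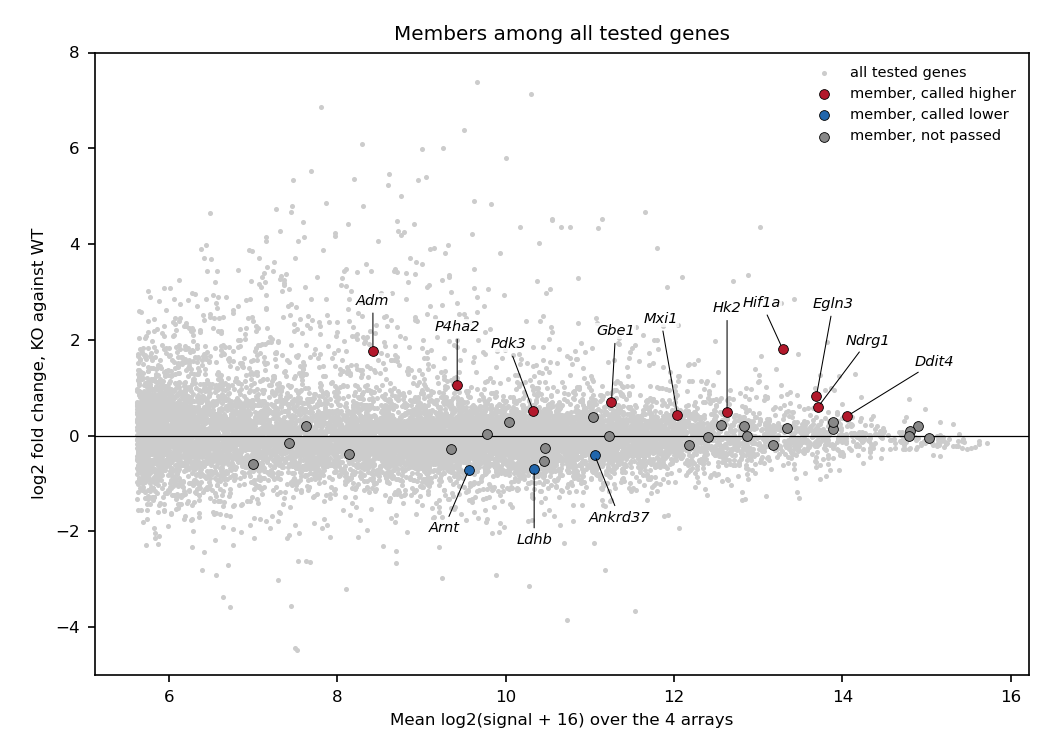
Log2 fold change (y axis) against the mean log2(signal + 16) over the 4 arrays (x axis) for all 12547 tested genes (grey) and the 37 tested members (large points). Hif1a is bright and lies at 1.81, Adm is dim and lies at 1.77, and most members at the bright end lie close to 0.

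The pyruvate dehydrogenase kinases keep pyruvate out of the mitochondria by inactivating its dehydrogenase. Pdk3 read 1056 and 1057 on the WT arrays and 1640.25 and 1408 on the KO arrays and rose (0.52 ± 0.13, adjusted p = 0.0304), though leaving out either WT array, or KO array 1, ended the call. Pdk2 was dim, at 166 and 119 in WT and 72.5 and 107 in KO cells (-0.59 ± 0.31, adjusted p = 0.24). The probe sets of Pdk1, the hypoxia-induced kinase, disagreed. By the brightest it read 10496 and 9257 in WT and 7230.3 and 10302.5 in KO cells, with overlapping groups (-0.19 ± 0.16, adjusted p = 0.452). A dim probe set rose from 10.6 and 5.43 to 154 and 190 (2.97 ± 0.38, adjusted p = 0.00131), and another fell from 2826 and 2699 to 1756 and 1282 (-0.87 ± 0.16, adjusted p = 0.00665). The direction of Pdk1 is therefore not settled. Without KO array 2 its brightest probe set was called lower, at -0.45.

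**Figure D4:**
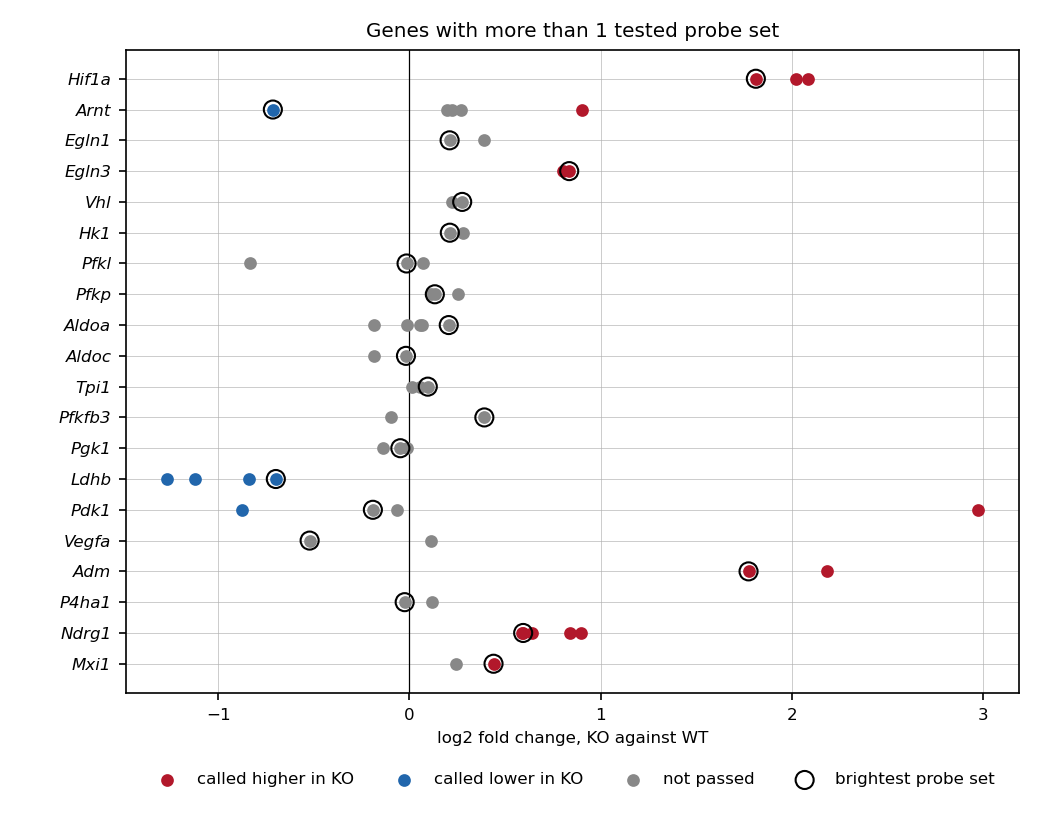
Log2 fold change (x axis) of every tested probe set of the 20 members with more than 1, with the brightest circled and colour marking the call. All probe sets of Hif1a, Egln3, Ldhb, Adm and Ndrg1 were called the same way (1 dim Hif1a probe set was not tested), whereas those of Arnt and Pdk1 were called in opposite directions.

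Of the glycogen genes on the list, Gbe1 rose. It encodes the enzyme that places the branches of glycogen and read 1793 and 2012 in WT and 3066 and 3146 in KO cells (0.70 ± 0.11, adjusted p = 0.00396). Pgm2, a phosphoglucomutase gene, read 947 and 756 against 824 and 921 and its groups overlapped (0.04 ± 0.16). Of 13 other tested genes of glycogen metabolism 3 were called higher, none lower and 10 did not pass, with a median of 0.36. This share lies near the 20.3% called over all genes tested. Pygl, the liver-type glycogen phosphorylase, rose from 1791 and 1855 to 6210 and 5899 (1.72 ± 0.10, adjusted p = 2.75e-05). Gys1, the muscle-type glycogen synthase, rose from 454 and 392 to 1141 and 1029 (1.33 ± 0.16, adjusted p = 0.000848), and Ugp2, which makes UDP-glucose, rose by 0.56 ± 0.13. The other phosphorylase genes, named after their values were seen, did not pass and lay lower, Pygm (dim) at -1.10 ± 0.42 and Pygb at -0.27 ± 0.12. Gyg, which primes glycogen synthesis, did not pass either (-0.22 ± 0.10).

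The remaining hypoxia-induced genes split. Adm encodes adrenomedullin, a secreted peptide that dilates vessels. It was dim, with 116 and 245 on the WT arrays and 538 and 710 on the KO arrays, and both KO arrays lay above both WT arrays (1.77 ± 0.32, adjusted p = 0.00667). Its second probe set rose too (2.18 ± 0.30). P4ha2, a subunit of the collagen prolyl hydroxylase, read 485 and 438 in WT and 1024 and 922 in KO cells (1.05 ± 0.15, adjusted p = 0.00243). Its relative P4ha1 did not pass, with 5219 and 5683 in WT and 5165 and 5545 in KO cells (-0.03 ± 0.10), and the change of P4ha2 exceeded it by 1.08.

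Ndrg1, a stress-induced gene known to be required for T cell anergy, read 10635 and 11113 in WT and 15369 and 17552 in KO cells (0.59 ± 0.10, adjusted p = 0.00407). All 5 of its probe sets rose, by 0.59 to 0.90. Ddit4, which encodes an inhibitor of the growth kinase mTORC1, read 14833 and 14723 in WT and 18350.3 and 20993 in KO cells (0.41 ± 0.09, adjusted p = 0.0195). Mxi1, an antagonist of Myc, read 3468 and 3736 in WT and 5010 and 4769 in KO cells (0.44 ± 0.10, adjusted p = 0.0199). The rises of Ddit4 and Mxi1 were small, and both calls were lost without WT array 1 or WT array 2.

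Other HIF targets on the list lay lower in KO cells. Ankrd37 read 2410.4 and 2449.9 in WT and 1876 and 1794 in KO cells and was called lower (-0.40 ± 0.11, adjusted p = 0.038), but leaving out any 1 of the 4 arrays ended the call. Vegfa, the angiogenic growth factor, read 1678 and 1660 in WT and 935 and 1431 in KO cells (-0.52 ± 0.19, adjusted p = 0.097). KO array 1 was the lower of the KO arrays, and without KO array 2 Vegfa was called lower, at -0.82. Its second probe set lay at 0.11 and did not pass. Kdm3a, a histone demethylase, read 4780.3 and 5056 in WT and 4407 and 4205 in KO cells (-0.19 ± 0.10, adjusted p = 0.224). Thus within the hypoxia response 5 of 9 of these genes rose, 1 fell and 3 did not pass, and their median was 0.41. Over all genes tested 10.5% were called higher and 9.87% lower.

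Further genes of these pathways were taken from lists written by name, with earlier results of these data known. Each gene is given by its brightest probe set. The counts of these lists stand beside 10.5% called higher and 9.87% called lower over all genes tested. Of 7 genes tested for the transport of glucose and lactate 3 rose and none fell. Bsg, the chaperone of lactate transporters, rose from 3507 and 3968 to 7377 and 7249 (0.97 ± 0.10, adjusted p = 0.000507). Slc2a3, a high-affinity glucose transporter, rose from 12735 and 13280.2 to 21776.5 and 19194 (0.65 ± 0.09), with 2 of its 4 tested probe sets called. Slc16a3, the lactate exporter induced by hypoxia, rose from 254 and 224 to 363 and 475 (0.76 ± 0.21, adjusted p = 0.0396). Slc2a1, the main glucose transporter of activated T cells, read 16268 and 16549 in WT and 18062 and 20106 in KO cells and did not pass by its brightest probe set (0.22 ± 0.09, adjusted p = 0.136), while 1 of its 3 was called higher. It was named after its values were seen.

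Among 13 other isozymes and regulators of glycolysis 2 rose and 2 fell. Ldhd, a mitochondrial dehydrogenase of D-lactate, rose from 65.4 and 45.2 to 217 and 275 (1.88 ± 0.29), and the dim sperm-type Gapdhs was called higher at 1.90 ± 0.50. Eno3, the muscle enolase, fell from 1460 and 1518 to 792 and 898 (-0.81 ± 0.13, adjusted p = 0.00446). Bpgm, which makes 2,3-bisphosphoglycerate, fell by 0.70, with 1 of its 3 tested probe sets called. Of 10 genes that bring pyruvate into the mitochondria and oxidise it, Pdha1, the catalytic subunit of pyruvate dehydrogenase, fell from 6291 and 6037 to 4231 and 3689 (-0.64 ± 0.11, adjusted p = 0.00464), and the other 9 did not pass. Of 10 pentose phosphate genes Pgd rose (0.37 ± 0.09, 2 of its 4 tested probe sets called) and Prps1 fell (-0.52 ± 0.10), with 8 not passing.

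Of 39 other genes of the hypoxia response 14 rose, 3 fell and 22 did not pass, with a median of 0.15. Over all genes tested 10.5% were called higher and 9.87% lower. The smallest p belonged to Plod2, a collagen lysyl hydroxylase, which rose from 996 and 888 to 4936 and 4827 (2.36 ± 0.11, adjusted p = 1.34e-05). Ier3, an early response gene, rose from 1618 and 2174 to 8802 and 10051.5 (2.32 ± 0.15), and Nt5e, the ectoenzyme that makes adenosine, by 1.93 ± 0.14. Hilpda, a lipid droplet protein induced by hypoxia, rose from 2572 and 3216 to 9122 and 8103 (1.57 ± 0.13, adjusted p = 0.000142). The genes that fell were Car12, a carbonic anhydrase (-1.18 ± 0.16), the transferrin receptor gene Tfrc (-0.91 ± 0.11) and the demethylase gene Kdm5b (-0.42 ± 0.11), named because they are few. Of their tested probe sets 1 of 2 was called for Car12, 1 of 3 for Tfrc and 3 of 4 for Kdm5b. Bnip3, a classical HIF target of mitochondrial clearance, was also named afterwards and did not pass at 12348 and 12577 against 14654 and 13079 (0.15 ± 0.09).

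Of 16 other regulators of the HIF pathway 1 rose and 4 fell, beside 10.5% higher and 9.87% lower over all genes tested. Os9, a lectin of the endoplasmic reticulum, rose from 942 and 1061 to 2101 and 1925 (0.997 ± 0.13, adjusted p = 0.00136). Siah1a, a ubiquitin ligase that acts on EGLN proteins, fell from 2908 and 2943 to 1661 and 1656 (-0.81 ± 0.11), Rwdd3, an enhancer of sumoylation, fell from 212 and 251 to 55.7 and 60.5 (-1.74 ± 0.27), and the coactivator gene Crebbp fell by 0.63. Hif1an, the asparagine hydroxylase that limits HIF activity, was the fourth, at 691 and 765 in WT and 388 and 509 in KO cells (-0.69 ± 0.18, adjusted p = 0.0329). It was named after its values were seen, and 1 of its 2 tested probe sets was called.

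Among 31 regulators of mTOR, Myc and AMPK 3 rose and 6 fell, with a median of -0.08. These counts stand beside 10.5% called higher and 9.87% called lower over all genes tested. Sesn1, a stress-induced inhibitor of mTORC1, fell from 3717 and 3978 to 878 and 1635 (-1.67 ± 0.24, adjusted p = 0.00252). Txnip, which restrains glucose uptake, fell from 10036 and 10932 to 7196 and 6806 (-0.58 ± 0.09, adjusted p = 0.00409). The Myc antagonists Mxd3 (-1.03 ± 0.18) and Mxd4 (-0.78 ± 0.14) fell as well. Of their tested probe sets 1 of 2 was called for Txnip, 1 of 3 for Mxd3 and 1 of 4 for Mxd4. Max (-0.69 ± 0.13, adjusted p = 0.00875) and Tsc1 (-0.53 ± 0.15, adjusted p = 0.0458) also fell and were named after their values were seen. For Tsc1 1 of 3 tested probe sets was called. Relatives of the genes that fell were among the 3 that rose, which were named after their values were seen. Mxd1, another Myc antagonist, rose from 3899.7 and 4218 to 5609 and 6447 (0.57 ± 0.11, adjusted p = 0.00932), and the sestrin gene Sesn2 rose from 416 and 298 to 615 and 574 (0.73 ± 0.20, adjusted p = 0.0381). The third was Mycn, a dim relative of Myc (1.69 ± 0.31). Of their tested probe sets 3 of 3 were called for Mxd1, 1 of 2 for Sesn2 and 1 of 3 for Mycn. Myc itself, named after its values were seen, read 6860.05 and 6094 in WT and 8015 and 7527 in KO cells and did not pass (0.26 ± 0.10, adjusted p = 0.111).

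**Figure D5:**
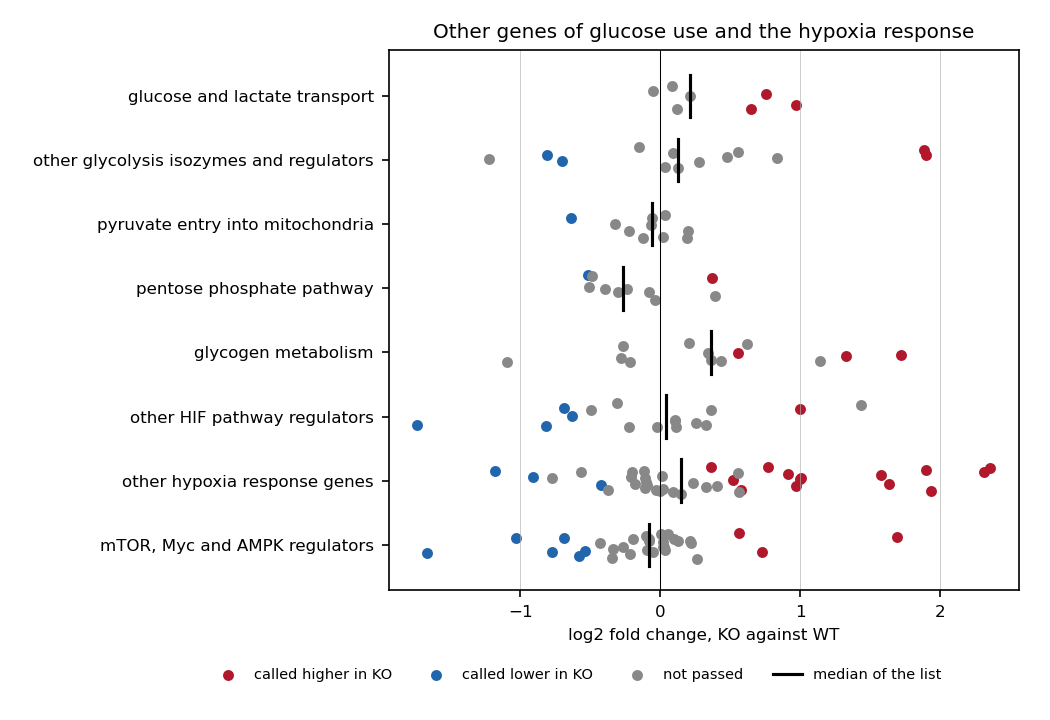
Log2 fold change (x axis) of the tested genes of 8 lists around glucose use and the hypoxia response that are not members themselves, with colour marking the call and a bar the median of each list. The glycogen list holds 3 genes called higher and 0 lower at a median of 0.36, and the other hypoxia response genes spread from -1.18 to 2.36.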

How the data were processed

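The authors deposited a linear intensity for each probe set on each array. Per the submitters' processing notes the tool was MAS5, and its version is not given in the sources used here. From the values, every array had been scaled to the same mean after 2% of the 45101 probe sets were left out at each end. Such scaling removes differences in total RNA per cell. Genes were named from the platform annotation, where 34958 probe sets carry a single gene, 9211 none and 932 more than 1, with identifiers looked up in the RefSeq gene table of GRCm38.p6. The 64 control probe sets were dropped. Values were taken as log2(signal + 16), and the dimmest 40% by mean were removed, leaving 27022. KO was compared with WT by genotype in the titles, in limma 3.58.1 (R 4.3.3), by lmFit and eBayes (two-sided, variance trend on intensity). Benjamini-Hochberg adjustment covered every probe set tested, with a threshold of 0.05, and there were 2 residual and 6.41 prior degrees of freedom. Intervals are 95% and unadjusted. All members were named, and of each other list up to 4 called genes with the smallest p. The members and lists were chosen with earlier results of these data known. The number of arrays limits the precision. Alternatives were other pseudocounts, filters, scalings and probe set choices, no trend, the array number as a block, each array left out, and, added after the data were seen, control probe sets kept.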

Additional observations from a re-analysis of the deposited data

How the results depend on the processing

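Hif1a and P4ha2 were called higher under every alternative run, and Egln3, Gbe1, Adm and Ndrg1 (higher) and Ldhb (lower) under all except the fit without an intensity trend. That fit called 1183 probe sets against 4608, with 2 members higher and 0 lower, and the only difference lay in how variances were estimated. Leaving out single arrays gave 2786 to 4387 probe sets, 6 to 11 members higher and 1 to 4 lower. Ankrd37 and Ddit4 also lost their calls with no filter, Ankrd37 with median centring, and Mxi1 with the mean over its probe sets. With the array number as a replicate block 5382 probe sets were called, 11 members higher (Pfkfb3 in addition) and 4 lower (Vegfa in addition). The deviations of same-numbered arrays correlated at 0.01 over probe sets. This single value cannot show whether these arrays share a day or a batch, and the labels do not say. The direction changed for Arnt, to 0.90 without cross-hybridising probe sets and 0.18 with the mean over probe sets, and for Pdk1, to 0.46 with that mean (called). With median centring it changed, without a call, for Pfkl (0.025), Aldoc (0.022), Ldha (0.021) and P4ha1 (0.015), with quantile normalization for Pgk1 (0.097) and Ldha (0.044), and with the mean over probe sets for P4ha1 (0.045). Leaving out single arrays took the log2 fold change across 0 for Hk1 (-0.098 to 0.52), Pfkl (-0.064 to 0.034), Aldoc (-0.20 to 0.17), Eno2 (-0.37 to 0.067), Ldha (-0.10 to 0.063), Pdk1 (-0.45 to 0.064), Pgm2 (-0.12 to 0.20), P4ha1 (-0.086 to 0.036) and Pgk1, which reached 0.0028. Hk1 at 0.52 (without KO array 1) and Pdk1 at -0.45 (without KO array 2) were called. For Arnt, and for Pdk1 and P4ha1 with the mean over probe sets, the probe sets used change. The cause of the other changes of direction was not tested. Scaling moved the median over all probe sets by under 0.1. The share of calls that were higher was 46.2%, and 61.5% without the trend. Dim genes such as Epas1, Eno2 and Pdk2 have wide intervals.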
